A study of Homo sapiens with 6 samples.

Results

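The mRNAs encoding the DNA replication machinery and the enzymes that supply its nucleotides were compared on polysomes between K562 cells with intact RNH1 and cells in which the gene was knocked out. The set comprised 51 genes, named by symbol, out of 60664 genes in the table, and all 51 were found. All 51 were also among the 16652 genes that were tested, which averaged 10 or more normalized counts across the 6 libraries. K562 is a human erythroleukemic cell line. Polysomal RNA (RNA that sediments with several ribosomes in a sucrose gradient) was isolated from 3 RNH1 WT samples and 3 samples in which RNH1, the gene of the ribonuclease inhibitor, had been knocked out with CRISPR/Cas9 (RNH1 KO). No other treatment separated the groups, and all samples received cycloheximide before lysis. The KO cells were grown as clones, and the sources used here do not say whether the KO samples came from 1 clone or several. The samples of a genotype are described as independent replicates, with no statement on separate cultures, and the p-values rest on the spread among these libraries alone.

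Replication starts from origins that are bound by the origin recognition complex (ORC1 to ORC6). With CDC6 and CDT1, ORC loads the hexameric MCM2-7 helicase in G1, and geminin (GMNN) blocks CDT1 once S phase has begun. The kinase CDC7 with its activator DBF4, and the factors CDC45, GINS and MCM10, then turn the loaded helicase into an active one, after which polymerases alpha, epsilon and delta copy the DNA with the help of the clamp PCNA, its loader RFC, the single-strand binding complex RPA, the nuclease FEN1 and the ligase LIG1. Many of these genes are transcribed in late G1 under E2F control, and their mRNAs are used as marks of proliferating cells.

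The members lay well above the detection limit in all 6 samples, with mean normalized counts from 196 (POLD4) to 31430 (MCM3) and a lowest single value of 131. The libraries held 34908202 to 46256928 reads in genes, and 3 reads, used as the floor of detection, corresponded to 2.58 to 3.40 normalized counts. Values are listed in the order of replicates 1, 2 and 3 throughout. RNH1 itself, the targeted gene, stood at 4566, 2857 and 1865 normalized counts in the WT libraries and at 1058, 1144 and 997 in the KO libraries, so its mRNA was reduced and not absent (log2 fold change -1.44, with an adjusted p of 0.000338 from limma). The KO libraries resembled each other more than the WT libraries did: the median coefficient of variation of the members was 21.3% in WT and 9.07% in KO, and it was larger in WT for 49 of the 51. WT replicate 2 stood apart from the other WT samples on the second principal component of all genes. Of 17 erythroid and myeloid markers 16 had a mean of at least 10 normalized counts, while HBE1 was listed at 0 in all samples (summed level of the list 146776 to 151285 in WT and 109970 to 121735 in KO). The GEO label calls the cells lymphoblasts, but only 2 of 7 B lymphoid markers reached that mean (summed level 185 to 232 normalized counts in WT and 137 to 140 in KO) and MS4A1 and VPREB1 were at 0. Of 6 T lymphoid markers 2 reached it, CD3D and CD3G (summed level of the list 346 to 469 in WT and 736 to 932 in KO). Of 9 fibroblast and epithelial markers 3 reached it, mostly through EPCAM (summed level of the list 3078 to 5444 in WT and 3317 to 3858 in KO), and KRT5, KRT14 and LUM were at 0. The part of these differences in the results below was not tested.

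The members' promoters were searched for short sequence motifs. RefSeq promoters (250 bases before to 50 bases after the start site, build GRCh38.p14) were matched by symbol for 45 of the 51 members. In all 5 sets of motifs were searched on both strands, and the set shown here was picked from them after the searches had been seen. This set, the E2F-type motifs TTTCGCGC and TTTGGCGC, had at least 1 match in 12 of 45 members (26.7%), compared with 1.4% of all 27305 genes with a promoter of the same length. The shorter TTCGCGC and TTGGCGC, which lie within them, matched 18 of 45 members (40%) and 6.1% of all genes. A wider set, made of TTTCGCG and TTTGGCG (which also lie within the longer motifs) together with the separate motif TTTCCCGC, matched 25 members (55.6%) and 5.64% of all genes. The CCAAT box matched 26 members (57.8%) and 39.7% of all genes. The cell cycle element TTTGAA matched 4 members (8.89%) and 18.2% of all genes. The wider set was present in 9 of the 14 lower members that had a promoter and in 4 of the 6 higher ones.
The 12 with the longer motifs were MCM2, MCM3, MCM6, MCM7, CDC6, GMNN, GINS1, POLA1, POLA2, POLE, POLE2 and DUT. In MCM2 and MCM6 a forward and a reverse match overlap. A match is a description of the letters and not evidence of a bound site.
The 30-base windows around the motif (capitals, also where it lies on the reverse strand) are shown for the 6 of these genes whose polysomal level changed, because these promoters hold a motif of the same set and the genes did not change in the same direction. MCM2 has TTTCGCGC and the other 5 have TTTGGCGC. The first 2 rose in RNH1 KO cells and the other 4 fell.
MCM2, chr3:127598402-127598431, plus strand: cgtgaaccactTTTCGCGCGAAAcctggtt
POLE, chr12:132687342-132687371, minus strand: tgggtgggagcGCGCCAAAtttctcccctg
GMNN, chr6:24775322-24775351, plus strand: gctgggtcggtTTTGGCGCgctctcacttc
POLE2, chr14:49688201-49688230, minus strand: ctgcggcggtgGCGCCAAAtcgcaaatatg
DUT, chr15:48332159-48332188, plus strand: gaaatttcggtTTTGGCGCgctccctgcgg
GINS1, chr20:25407667-25407696, plus strand: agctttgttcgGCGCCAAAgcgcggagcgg
For POLE and DUT, which moved in opposite directions, the whole 250 bases before the start site are given, with the same motif in capitals.
POLE, chr12:132687343-132687592, minus strand: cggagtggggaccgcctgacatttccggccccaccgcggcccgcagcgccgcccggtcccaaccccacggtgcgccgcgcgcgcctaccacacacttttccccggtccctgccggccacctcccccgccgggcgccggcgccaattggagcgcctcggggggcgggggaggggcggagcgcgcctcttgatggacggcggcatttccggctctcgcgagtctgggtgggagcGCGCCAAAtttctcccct
DUT, chr15:48331947-48332196, plus strand: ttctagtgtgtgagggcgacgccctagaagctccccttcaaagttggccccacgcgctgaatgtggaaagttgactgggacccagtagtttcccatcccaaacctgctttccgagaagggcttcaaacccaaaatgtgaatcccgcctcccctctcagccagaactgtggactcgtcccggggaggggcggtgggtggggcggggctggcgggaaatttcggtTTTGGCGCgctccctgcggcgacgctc

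Replication mRNAs did not move as a block when RNH1 was knocked out. Of the 51 members 16 were lower and 7 were higher in KO, and 28 did not pass the test (limma on log2(normalized count + 1), Benjamini-Hochberg adjusted p under 0.1 over all 16652 genes). Among all genes tested 24.1% were lower and 24.1% were higher, where 31.4% of members were lower and 13.7% higher. Genes more like the members leaned lower. Among protein-coding genes tested 25.8% were lower and 23.2% higher. With a filter at a mean of 100 normalized counts, 3228 of all genes were lower and 2614 higher. The members had a median log2 fold change of -0.25, against 0.027 over all genes tested. In 19 members the KO values all lay below the WT values, and in 7 they all lay above, where 25.5% and 25.6% of all genes did so. An mRNA's amount and its loading with ribosomes cannot be told apart in polysomal RNA alone, nor can fewer cells in S phase and less RNA per cell in these bulk samples. The 16 lower mRNAs encoded GMNN, ORC4, ORC5, GINS1, GINS2, GINS3, DBF4, POLE2, POLE3, POLE4, RPA2, RPA3, PCNA, RFC3, RFC4 and DUT, and the 7 higher ones CDT1, MCM2, MCM5, POLE, POLD1, RPA1 and LIG1.
The balance depended on the scaling. The normalized counts use 1 DESeq2 size factor per sample. With values scaled to the library total, which shifts all genes upward in KO by a median of 0.32 on the log2 scale, 7 members were lower and 15 higher (14.5% and 39.7% of all genes) and the members' median was 0.079. No called member changed sign under any of the 18 alternatives tried.

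**Figure D1:**
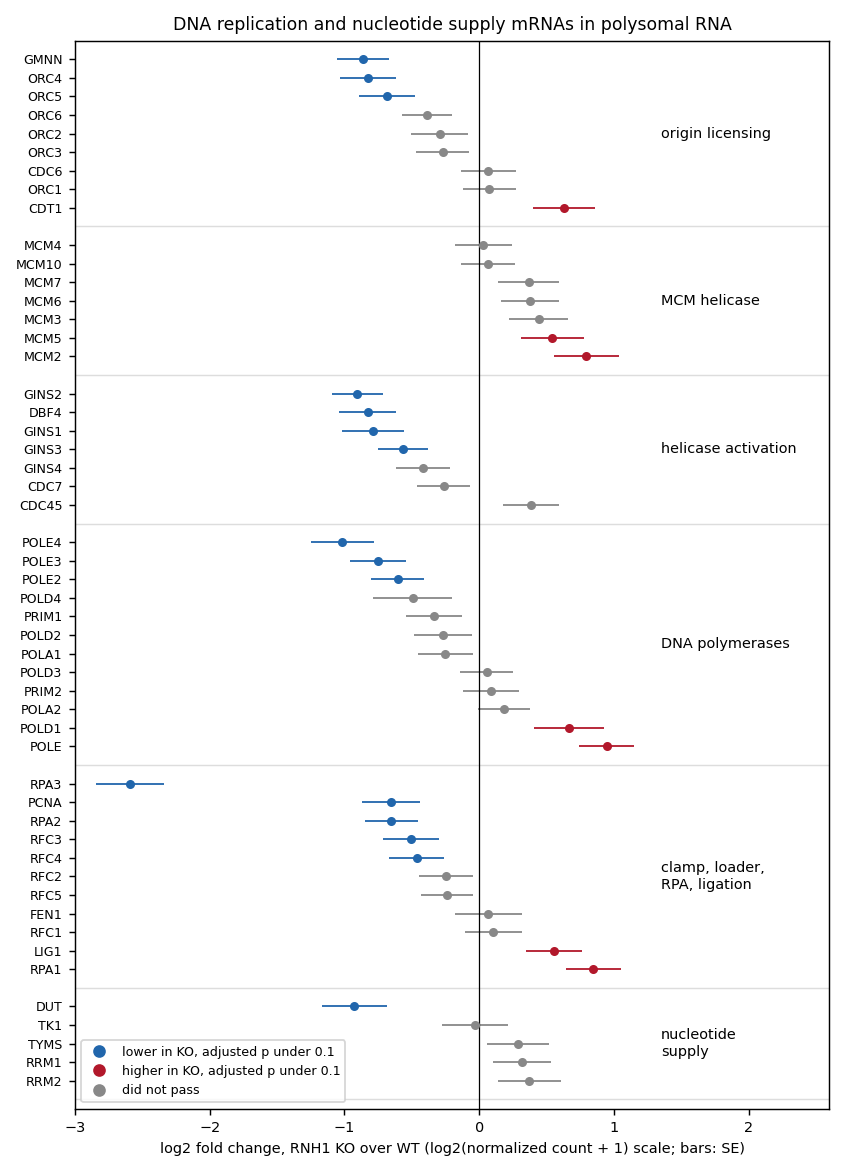
Log2 fold change of RNH1 KO over WT in polysomal RNA (x axis, log2(normalized count + 1) scale) for each of the 51 mRNAs (y axis), grouped by role. Points are limma estimates with standard errors, colored by the test; RPA3 lies far to the left at -2.59 and most complexes have members on both sides of 0.

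Replication protein A showed the widest split. RPA is the trimer that coats single-stranded DNA, with RPA1 as its large DNA-binding subunit and RPA2 and RPA3 as the smaller ones. RPA3 had 4826, 3222 and 7027 normalized counts in WT and 999, 763 and 651 in KO. The groups were far apart, and the WT mean was 6.25 times the KO mean (log2 fold change -2.59, standard error 0.25, adjusted p = 9.17e-07 from limma), the largest change of the 51. RPA1 went the other way, from 2809, 3075 and 2105 in WT to 4511, 4319 and 5429 in KO (log2 fold change 0.85, standard error 0.21, adjusted p = 0.0037 from limma). RPA2 had 6899, 8529 and 6355 in WT and 4880, 4376 and 4523 in KO (log2 fold change -0.65, adjusted p = 0.0154 from limma, but 0.216 with library total scaling, where it did not pass).
The ratio of subunits within a sample does not depend on the scaling. It can still carry the trend with coding length described below. The coding sequence has 363 nucleotides in RPA3, 810 in RPA2 and 1848 in RPA1. RPA3 counts were 1.72, 1.05 and 3.34 times those of RPA1 in the WT samples and 0.222, 0.177 and 0.12 times in the KO samples. RPA2 counts were 2.46, 2.77 and 3.02 times those of RPA1 in WT and 1.08, 1.01 and 0.833 times in KO. Neither ratio overlapped between the genotypes, and on the log2 scale they differed by -3.44 and -1.50. These and the other subunit pairs were picked after the fold changes were seen and carry no test. RPA3 (chromosome 7 of GRCh38, 7636518 to 7718607, minus strand) overlaps UMAD1 on the opposite strand over 77897 bases. UMAD1 averaged 460 normalized counts in WT and 231 in KO. The sources used here do not give the strand setting of featureCounts, so the reads of the pair may not be fully separated. Of the 51 members 32 overlap another annotated gene, 12 of them on the same strand, and only some of these overlaps are described here.

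DNA polymerase epsilon, which copies the leading strand, was divided in the same manner between its catalytic subunit and its smaller ones. POLE, the catalytic subunit, rose from 9543, 8331 and 7184 normalized counts in WT to 14386, 16701 and 17001 in KO, and the groups did not overlap (log2 fold change 0.95, standard error 0.21, adjusted p = 0.00171 from limma). The histone-fold subunit POLE4 had 1632, 1106 and 2130 in WT and 826, 879 and 639 in KO (log2 fold change -1.02, standard error 0.24, adjusted p = 0.00273 from limma). Its partner POLE3 fell from 6252, 5779 and 8883 to 4022, 4168 and 4035 (log2 fold change -0.75, adjusted p = 0.00897 from limma, but 0.115 with library total scaling).
POLE2, the second subunit, had 1629, 2227 and 1962 in WT and 1381, 1154 and 1265 in KO (log2 fold change -0.61, adjusted p = 0.0205 from limma). Its call was lost without KO replicate 2 (adjusted p = 0.125), with library total scaling (0.292) and with a correction for transcript length (0.113). For all 3 small subunits the ratio to POLE was lower in every KO sample than in every WT sample, with differences of -1.55 for POLE2, -1.69 for POLE3 and -1.96 for POLE4 on the log2 scale. POLE3 counts, for instance, were 0.655, 0.694 and 1.24 times those of POLE in WT and 0.28, 0.25 and 0.237 times in KO.
Of the 4 subunits of polymerase delta, the lagging-strand enzyme, only the catalytic POLD1 passed (25% higher, against 24.1% of all genes). It went from 8127, 3913 and 3612 normalized counts in WT to 7147, 7755 and 8273 in KO (log2 fold change 0.67, adjusted p = 0.0518 from limma). WT replicate 1 lay within the KO values, so the groups overlapped, and the call was lost without WT replicate 2 (adjusted p = 0.157), WT replicate 3 (0.218), KO replicate 2 (0.10) or KO replicate 3 (0.12). The accessory subunits POLD2, POLD3 and POLD4 had log2 fold changes of -0.27, 0.056 and -0.49, and POLD4 was lower without WT replicate 2 (-0.87, adjusted p = 0.00568 from limma), as was POLD2 (-0.44, adjusted p = 0.051). In polymerase alpha, which with primase lays down the RNA-DNA primer, no subunit passed (nor at an unadjusted p under 0.05, or with edgeR or DESeq2), with log2 fold changes of -0.34 (PRIM1) to 0.18 (POLA2). PRIM1 was lower without WT replicate 1 (-0.52, adjusted p = 0.0269 from limma). POLA1 was lower with transcript length correction (-0.41, adjusted p = 0.0611 from limma), and POLA2 higher with library total scaling (0.51, adjusted p = 0.0542). PRIM1 shares 1191 bases on its own strand with NACA, which averaged 26588 normalized counts in WT and 8795 in KO, so its count is uncertain.

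**Figure D2:**
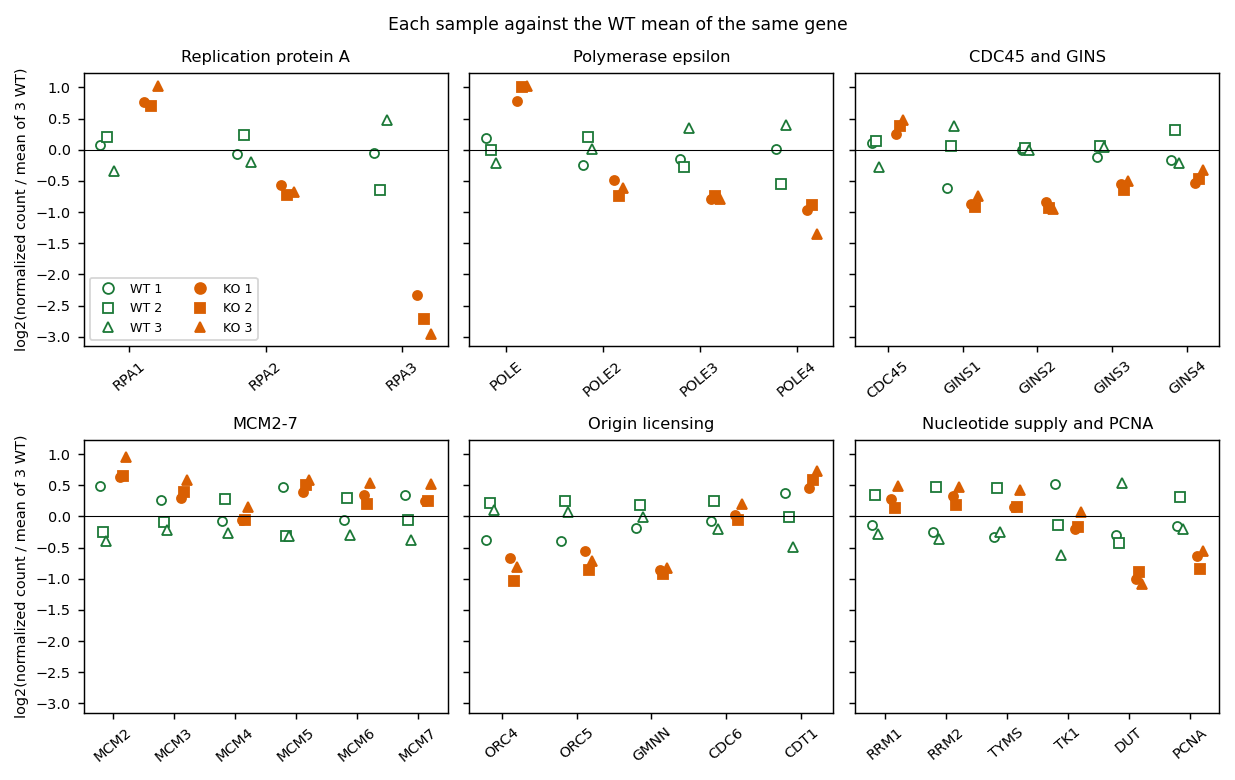
Normalized count of each sample over the mean of the 3 WT samples of the same gene (y axis, log2 scale) for selected mRNAs (x axis). Open green symbols are WT and filled orange symbols KO, with circle, square and triangle for replicates 1, 2 and 3; RPA1 and POLE lie above their WT samples, RPA2, RPA3, POLE2, POLE3, POLE4 and the 4 GINS mRNAs below.

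None of the 7 MCM mRNAs was lower, and 2 were higher, MCM2 and MCM5 (28.6%, against 24.1% of all genes in each direction). The median log2 fold change was 0.38 over MCM2 to MCM7 and MCM10. At an unadjusted p under 0.05 the count of lower ones was 0 as well, and MCM4, the lowest, had adjusted p = 0.986 with edgeR and 0.955 with DESeq2. MCM2 had 10136, 6094 and 5508 normalized counts in WT and 11162, 11345 and 14088 in KO, without overlap (log2 fold change 0.80, standard error 0.24, adjusted p = 0.0137 from limma). MCM5 went from 9746, 5619 and 5633 to 9215, 9876 and 10516, with WT replicate 1 among the KO values (log2 fold change 0.54, adjusted p = 0.07 from limma). The MCM5 call was lost with edgeR (adjusted p = 0.101) and without WT replicate 2 (0.154), WT replicate 3 (0.198), KO replicate 1 (0.123), KO replicate 2 (0.162) or KO replicate 3 (0.198). MCM3, MCM6 and MCM7 had log2 fold changes of 0.44, 0.38 and 0.37 and did not pass, but all 3 were higher with library total scaling (adjusted p = 0.00524, 0.0114 and 0.013). MCM3 and MCM7 were also higher without WT replicate 1 (0.0495 and 0.0602), and MCM6 without WT replicate 2 (0.0306). The KO values of MCM3 all lay above its WT values. MCM3 was higher with DESeq2 (adjusted p = 0.0697), though not with edgeR (0.129). In limma MCM3 and MCM6 were higher with upper-quartile scaling (adjusted p = 0.0592 and 0.0771), and MCM3 and MCM7 with transcript length correction (0.0722 and 0.0968). MCM4 and MCM10 stood at 0.032 and 0.065.
The proteins of MCM2-7 form 1 hexamer with 1 copy each. Per kilobase of canonical transcript, their polysomal levels spanned from 2024 (MCM5) to 8879 (MCM7) normalized counts in WT, a ratio of 4.39, and from 2854 (MCM5) to 11768 (MCM3) in KO, a ratio of 4.12.

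The GINS complex joins CDC45 and MCM2-7 in the active helicase. Of its 4 mRNAs 3 were lower (75%, against 24.1% of all genes) and GINS4 did not pass. GINS2 fell from 8203, 8364 and 8187 normalized counts in WT to 4607, 4333 and 4281 in KO, with little spread in either group (log2 fold change -0.91, standard error 0.19, adjusted p = 0.00126 from limma). GINS1 had 1554, 2485 and 3095 in WT and 1297, 1259 and 1415 in KO (log2 fold change -0.79, adjusted p = 0.012 from limma, but 0.111 with library total scaling). GINS3 had 1983, 2249 and 2208 in WT and 1462, 1367 and 1518 in KO (log2 fold change -0.57, adjusted p = 0.0217 from limma). Its call was lost without KO replicate 2 (adjusted p = 0.131) and with library total scaling (0.35). GINS4 did not pass (-0.42, adjusted p = 0.107 from limma), although its KO samples were all below its WT samples. It was lower without WT replicate 1 (-0.49, adjusted p = 0.057) or WT replicate 3 (-0.52, adjusted p = 0.0671), and with edgeR (adjusted p = 0.0795).
CDC45, the partner of GINS, had 11965, 12331 and 9148 in WT and 13288, 14472 and 15580 in KO, where the KO values all exceeded the WT values, but did not pass (0.38, adjusted p = 0.154 from limma). It was higher without WT replicate 2 (0.46, adjusted p = 0.0571) and with library total scaling (0.71, adjusted p = 0.00883). GINS2 counts were 0.686, 0.678 and 0.895 times those of CDC45 in WT and 0.347, 0.299 and 0.275 times in KO, a difference of -1.29 on the log2 scale. Of the kinase that fires origins, the activating subunit DBF4 fell from 2274, 3413 and 3673 to 1889, 1727 and 1559 (log2 fold change -0.83, standard error 0.21, adjusted p = 0.00528 from limma), while the catalytic subunit CDC7 did not pass (-0.26, adjusted p = 0.301), except without WT replicate 1 (-0.39, adjusted p = 0.0673).

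At the licensing step, the inhibitor and its target moved apart. Geminin mRNA (GMNN) fell from 6448, 8316 and 7340 normalized counts in WT to 4050, 3886 and 4155 in KO (log2 fold change -0.86, standard error 0.19, adjusted p = 0.00223 from limma). CDT1, the loading factor that geminin binds, rose from 7590, 5831 and 4149 to 8010, 8786 and 9675 (log2 fold change 0.63, standard error 0.23, adjusted p = 0.0365 from limma). The CDT1 call was lost without WT replicate 3 (adjusted p = 0.139) or KO replicate 3 (0.137). The ratio of GMNN to CDT1 was 0.85, 1.43 and 1.77 in WT and 0.506, 0.442 and 0.429 in KO, so the genotypes did not overlap.
Of the 6 ORC mRNAs 2 were lower (33.3%, against 24.1% of all genes) and none was higher in limma, also at an unadjusted p under 0.05. ORC4 had 2197, 3326 and 3069 in WT and 1796, 1390 and 1626 in KO (log2 fold change -0.82, standard error 0.21, adjusted p = 0.00488 from limma). ORC5 had 2183, 3421 and 3004 in WT and 1955, 1576 and 1753 in KO (-0.68, adjusted p = 0.015 from limma, but 0.19 with library total scaling). ORC6 (-0.38, adjusted p = 0.108), ORC2 (-0.29), ORC3 (-0.27) and ORC1 (0.076) did not pass, nor did CDC6 (0.067), which with ORC loads the helicase. ORC6 was lower with edgeR (adjusted p = 0.0909) and without WT replicate 1 (0.04). Without 1 sample ORC2 and ORC3 reached adjusted p = 0.0484 and 0.0938 at the lowest.

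Among the factors that act at the moving fork besides RPA, PCNA fell from 13676, 18858 and 13161 normalized counts in WT to 9826, 8517 and 10379 in KO (log2 fold change -0.66, standard error 0.21, adjusted p = 0.0218 from limma). PCNA is the sliding clamp that holds the polymerases on DNA and is a common marker of proliferating cells. Its call was lost without KO replicate 2 (adjusted p = 0.132), with library total scaling (0.227) and with the transcript length correction (0.184). Of the 5 subunits of the clamp loader RFC, RFC3 (-0.51, adjusted p = 0.061 from limma) and RFC4 (-0.46, adjusted p = 0.0765) were lower. These are 40%, against 24.1% of all genes. Without WT replicate 2 neither passed (adjusted p = 0.152 and 0.17), nor without KO replicate 1 (0.127 and 0.179), KO replicate 2 (0.241 and 0.251) or KO replicate 3 (0.123 and 0.168). Neither call held with library total scaling (log2 fold change -0.18 and -0.14, adjusted p = 0.517 and 0.623) or with transcript length correction (-0.42 and -0.20, adjusted p = 0.118 and 0.472). RFC2, RFC5 and RFC1 had log2 fold changes of -0.25, -0.24 and 0.11 and did not pass.
DNA ligase 1 (LIG1), which seals Okazaki fragments, was higher, with 3582, 2795 and 2352 in WT and 3793, 4066 and 4833 in KO (log2 fold change 0.55, standard error 0.21, adjusted p = 0.0426 from limma). The LIG1 call was lost without WT replicate 3 (adjusted p = 0.134), KO replicate 2 (0.109) or KO replicate 3 (0.216). FEN1, the nuclease that trims the same fragments, had a log2 fold change of 0.068 and did not pass. It shares 4259 bases on its own strand with FADS2 (mean of 1496 normalized counts in WT and 1609 in KO), so its count is uncertain.

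Of the 5 enzymes of nucleotide supply, DUT alone passed (20% lower, against 24.1% of all genes). DUT, the dUTPase that keeps uracil out of DNA, had 10016, 9118 and 17814 normalized counts in WT and 6108, 6663 and 5830 in KO, all below WT (log2 fold change -0.93, standard error 0.24, adjusted p = 0.006 from limma). Both subunits of ribonucleotide reductase, which makes deoxynucleotides, were within the spread of the samples: RRM2 had 8984, 14744 and 8338 in WT and 13411, 12062 and 14823 in KO (log2 fold change 0.37, standard error 0.23, adjusted p = 0.218 from limma), and RRM1 had a log2 fold change of 0.32. The ratio of RRM2 to RRM1 was 1.97, 2.32 and 2.03 in WT and 2.21, 2.20 and 2.12 in KO, and overlapped.
Thymidylate synthase (TYMS) had 6526, 11158 and 6855 in WT and 9100, 9126 and 10959 in KO (0.29, standard error 0.23, adjusted p = 0.334 from limma). The salvage enzyme thymidine kinase TK1 had 6850, 4365 and 3125 in WT and 4133, 4244 and 5002 in KO (-0.030, standard error 0.25, adjusted p = 0.933 from limma). For RRM1, RRM2 and TYMS the highest WT value was that of WT replicate 2, and without it all 3 were higher in KO (adjusted p = 0.0347, 0.0115 and 0.0244 from limma), as they were with library total scaling (0.0188, 0.0171 and 0.0326). TYMS overlaps ENOSF1 on the opposite strand over 3261 bases, which had 1814 normalized counts in WT and 3179 in KO.

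The lower members had shorter coding sequences than the higher ones. The median coding length of the canonical transcript was 770 nucleotides for the 16 lower mRNAs, 1689 for the 28 that did not pass and 2712 for the 7 higher ones. Among all protein-coding genes tested the corresponding medians were 801, 1440 and 2340, so the trend was not particular to the members. The shortest of the higher group was that of CDT1, at 1638 nucleotides, and the longest of the lower group that of DBF4, at 2022. Across the 51 genes, log2 fold change and log10 coding length had a Pearson r of 0.71 and a Spearman rho of 0.71 (without RPA3, 0.69 and 0.70). Across the 11866 protein-coding genes tested with a coding length they were 0.45 and 0.52. Genes are not independent replicates and share the same 6 libraries, so these values only describe them. Exceptions were POLA1 (coding length 4404, log2 fold change -0.25) and RRM2 (1167, 0.37). In every within-sample ratio given above the numerator had the shorter coding sequence, for instance POLE4 (351) over POLE (6858). Among these, the ratio of RRM2 (1167) to RRM1 (2376) overlapped between genotypes. The part of coding length in the ratios was not tested.
GC content of the transcript went along with the direction too, with a median of 43.8% for the lower, 45.3% for those that did not pass and 57.4% for the higher members (Pearson r = 0.46 across the 51). Over the protein-coding genes tested the medians were 43.8%, 48.9% and 53.8%, with r = 0.22 across 12083 genes. With a correction of each sample for a trend with transcript length, 14 members were lower and 10 higher (24.3% and 24.4% of all genes). That correction used the whole transcript, whose log10 length had a Pearson r of 0.41 with log2 fold change across the 51. With a correction for GC content, added after the data were seen, 19 were lower and 11 higher (26.1% and 28.3% of all genes). RPA1, RPA3, POLE, POLE4, MCM2, GINS2, GMNN, ORC4, DBF4 and DUT kept their calls under all 18 alternatives, none of which corrected for coding length.

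**Figure D3:**
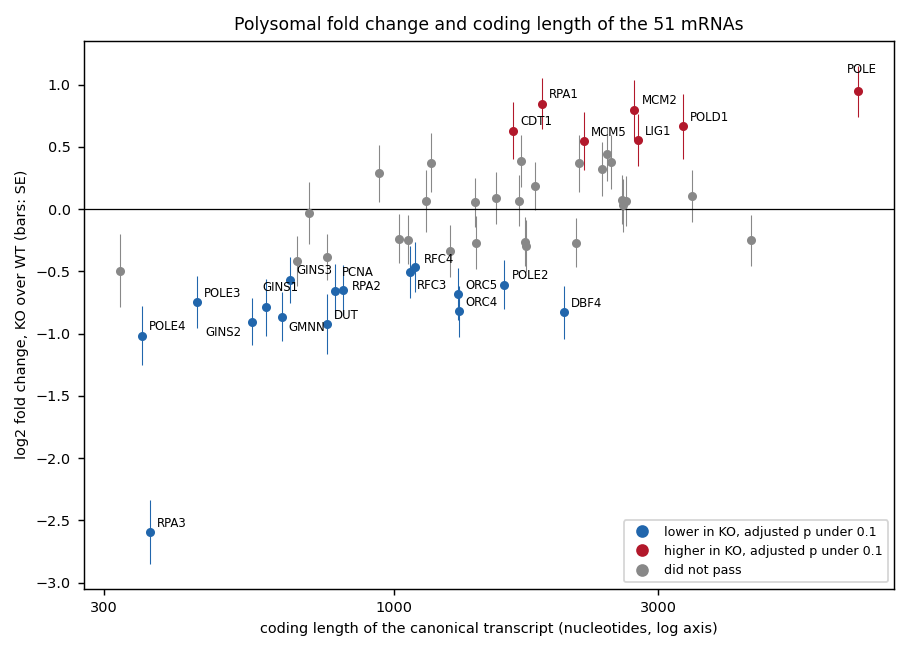
Log2 fold change of RNH1 KO over WT (y axis, bars are standard errors) against the coding length of the canonical transcript (x axis, nucleotides, log axis) for the 51 mRNAs. Blue points are lower, red points higher and gray points did not pass; the 7 red points lie at 1638 nucleotides or more.

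Other genes of the same pathway, from lists outside the 51, were also mixed. Of 36 other fork and origin factors tested 7 were lower and 11 higher (19.4% and 30.6%, against 24.1% of all genes in each direction), with a median log2 fold change of 0.29. The largest changes were those of SSBP1 (-1.13, adjusted p = 0.000431 from limma), which encodes the single-strand binding protein of mitochondria, TICRR (0.99, adjusted p = 0.0011), which helps to load CDC45, BAZ1B (0.99, adjusted p = 0.00351), a chromatin remodeling subunit, and TIPIN (-0.98, adjusted p = 0.00121). TIPIN and TIMELESS form 1 fork protection complex, and TIMELESS was higher (0.76). Of 32 genes of nucleotide metabolism 9 were lower and 4 higher (28.1% and 12.5%, median -0.067), led by RRM2B (-1.47), the alternative small subunit of ribonucleotide reductase, and NME1 (-1.01), a nucleoside diphosphate kinase, while CAD (0.91) and PFAS (0.89), large enzymes of pyrimidine and purine synthesis, were higher.
The 26 genes of E2F, RB and S-phase control included 5 lower and 3 higher (19.2% and 11.5%, again against 24.1% of all genes in each direction, median -0.12). CKS1B had 10073, 5903 and 11610 normalized counts in WT and 2327, 2054 and 1646 in KO (log2 fold change -2.15), E2F5 had a log2 fold change of -2.07 and cyclin E2 (CCNE2) of -1.03, and the repressor E2F7 rose by 1.25. In the comparison list of 25 mitosis genes 3 were lower and 7 higher (12% and 28%, median 0.11). MAD2L1 (-1.46), CDK1 (-1.05) and BIRC5 (-0.77) were lower, and TPX2 (0.77) was the most increased.

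Summed over the 51 members, the replication mRNAs took up a larger share of the reads in KO than in WT. The share was 0.66%, 0.737% and 0.624% in WT and 0.853%, 0.852% and 0.892% in KO, with means of 0.674% ± 0.0578 and 0.866% ± 0.0226 (SD over 3 samples). The groups did not overlap. No test is given, because the members were chosen with results known. An exact permutation test with 3 samples per genotype also cannot give a p below 0.1. This share is relative to all reads in genes, whereas the fold changes above use the size factors. Its direction thus matches that of the library total scaling. With that scaling the median log2 fold change was 0.35 over all genes tested and 0.079 over the members. A larger share was therefore not particular to these mRNAs. By role, the MCM helicase genes went from 0.203% ± 0.0289 to 0.327% ± 0.0177 and the polymerases from 0.0988% ± 0.00245 to 0.132% ± 0.00408, without overlap. The nucleotide supply genes went from 0.0894% ± 0.013 to 0.109% ± 0.00369, also without overlap. The clamp, RPA and ligation genes stayed at 0.12% ± 0.018 and 0.118% ± 0.00552, where the samples overlapped. Samples also overlapped for origin licensing (0.0926% ± 0.0123 and 0.105% ± 0.0022) and helicase activation (0.0704% ± 0.00784 and 0.0748% ± 0.000949).
The 25 mitosis genes of the comparison list also took a larger share in KO, with 0.225%, 0.335% and 0.246% in WT and 0.365%, 0.348% and 0.377% in KO.
Replication-dependent histone mRNAs, which accumulate in S phase, behaved otherwise. Of 51 such genes, listed by symbol after the data were seen, 42 were tested. All 42 were lower in KO (100%, against 24.1% of all genes), with a median log2 fold change of -2.09. Over the protein-coding genes tested, log2 fold change went along with coding length (Spearman rho 0.52). The part of coding length in the histone difference was not tested. Their share was 6.24%, 2.93% and 4.90% in WT and 1.37%, 1.26% and 1.11% in KO. The list was made with these values known, so its count is a description.

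**Figure D4:**
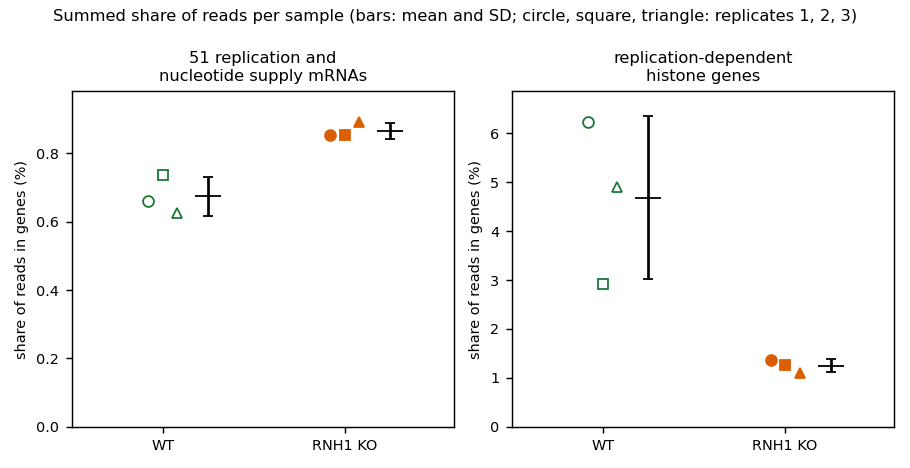
Share of all reads in genes (y axis, percent) taken by the 51 replication and nucleotide supply mRNAs (left) and by replication-dependent histone genes (right) in the WT and RNH1 KO samples. Circles, squares and triangles are replicates 1, 2 and 3, with mean and SD beside them; the left share is higher in all KO samples and the right one lower in all.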

How the data were processed

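Polysome-seq of 3 RNH1 WT and 3 RNH1 KO K562 samples was used. The authors mapped reads from stranded libraries of total RNA to GRCh38 with HISAT2, counted reads per Ensembl gene with featureCounts and scaled them with DESeq2 (2.2.1, 2.0.1 and 1.36.0 in the submitters' processing notes; the methods of the paper name different ones). The deposited signal of each sample, gene counts divided by 1 size factor, was analyzed; dividing by what 1 read is worth gave whole numbers for 100% of nonzero values (tolerance 1e-06), and these recovered reads served for count tests. The deposited fold changes, p-values and means of the authors' own comparison were not used.

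Genes with a mean of at least 10 were compared with limma 3.58.1 (R 4.3.3) on log2(value + 1), using trend and robust variance shrinkage and a model of genotype alone; calls needed an adjusted p under 0.1. Alternatives were pseudocounts, filters, scalings, edgeR 4.0.16 (4284 genes lower, 3739 higher) and DESeq2 1.42.0 on recovered reads, a replicate block, corrections for transcript length and GC content, and each sample left out. The fits were tested on simulated data. Coordinates, transcript and coding lengths come from canonical transcripts of GENCODE 44 (GRCh38). Python 3.11.15 was used otherwise. Values were given per sample for up to 4 called members per role with the largest changes and for PCNA, MCM2, RRM2, TYMS and TK1; from each other list up to 4 called genes were named. CDC45, POLE2, LIG1, TIMELESS and the subunit ratios were added after values were seen. The promoter motif was picked from 5 sets after the searches were seen. The members and lists were chosen with earlier results of these data known.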

Additional observations from a re-analysis of the deposited data

How the results depend on the processing

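Of the 23 called members 10 kept their call under all 18 alternatives and 0 changed sign. With library total scaling 2419 genes were lower and 6615 higher, the members numbered 7 and 15, and their median was 0.079. With transcript length correction the members' median was -0.052, also with the replicate block, where 10 members were lower. With GC content correction 11 members were higher and the median was -0.074. With a filter at a mean of 100, 3228 genes were lower and 2614 higher. With the replicate number as a block 13 members were lower and 5 higher, and GINS3 (adjusted p = 0.102), RFC3 (0.15), RFC4 (0.196), LIG1 (0.118) and MCM5 (0.148) did not pass. The numbers were not taken to pair the samples, since the sources used here do not say that they do. Deviations of same-numbered WT and KO samples from their group means had r = -0.27 to -0.16. With 3 samples per genotype these values cannot show whether the numbers mark pairs.
Leaving out each sample in turn gave 3057 to 4361 lower and 2778 to 4575 higher genes, 11 to 22 lower and 3 to 10 higher members, a members' median of -0.28 to -0.0915 (-0.0915 without WT replicate 2) and a KO minus WT share of 0.167 to 0.224 percentage points. Higher members numbered 3 without WT replicate 3 or KO replicate 3 and 4 without KO replicate 2.
Some members without a call changed sign. With library total scaling the log2 fold change was 0.032 for ORC2, 0.055 for ORC3, 0.063 for CDC7, 0.056 for POLD2, 0.075 for POLA1, 0.079 for RFC2, 0.088 for RFC5 and 0.30 for TK1. With transcript length correction, with and without the replicate block, it was -0.0345 for CDC6, -0.038 for MCM4, -0.036 for MCM10, -0.014 for RFC1 and 0.22 for TK1. With upper-quartile scaling TK1 stood at 0.036. With GC content correction CDC7 stood at 0.026 and FEN1 at -0.0060. Over the samples left out the ranges were -0.028 to 0.19 for CDC6, -0.09 to 0.18 for MCM4, -0.019 to 0.20 for MCM10, -0.031 to 0.19 for POLD3, -0.075 to 0.22 for PRIM2, -0.24 to 0.27 for FEN1, -0.024 to 0.32 for RFC1 and -0.30 to 0.27 for TK1. Of the 28 members that did not pass, 17 passed under at least 1 alternative. The median standard error of the members was 0.21 on the log2 scale, which with 3 samples per genotype limits how small a change can pass.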
